A study of Mus musculus with 12 samples.

Results

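Sln, Pln, Ucp2, Ucp3, Ppargc1a and Dio2 are 6 genes tied to heat production in skeletal muscle and related tissues, and their mRNA was examined in gastrocnemius, the large muscle of the calf, from 12 male C57BL/6J mice. All probes that the platform annotation gives to these gene symbols were taken, which were 9 of the 45281 probes on the Illumina MouseWG-6 v2 BeadChip. They belong to 5 of the 6 genes. No probe carries the symbol Ucp2 in the annotation used, so Ucp2 was not analysed here. The mice were 10 to 12 weeks old, weighed 22 to 26 g and carried an implanted temperature transponder. All went through a heat test in a chamber warmed to 39.5 °C for at most 3 h, with food and water taken away beforehand, and the muscle was collected on the following day. The 6 heat-intolerant (INT) and 6 heat-tolerant (TOL) mice were named by their core temperature during that test, so the groups differ in a measured response and not in a treatment or an allele, and no unheated mice were analysed here. The numbers 3, 4, 5, 7, 9 and 11 name a mouse in each group.

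As background, muscle makes heat largely by spending ATP. The pump SERCA carries calcium back into the sarcoplasmic reticulum, and sarcolipin, the product of Sln, lets the pump spend ATP without moving calcium, while phospholamban, the product of Pln, lowers its affinity for calcium. Ucp2 and Ucp3 encode carriers of the mitochondrial inner membrane that are related to Ucp1, the uncoupling protein of brown fat. Ppargc1a encodes PGC-1alpha, a coactivator that raises mitochondrial gene expression in cold, exercise and fasting, and Dio2 encodes the enzyme that activates thyroid hormone inside cells.

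Each array gave the average signal of each probe on a linear scale and a detection p, which compares that signal with the negative control probes of the array. The signals were background corrected, quantile normalized and put on a log2 scale, and this value is called the log2 intensity. A probe was tested when its detection p was under 0.05 on at least 6 of the 12 arrays, and 15570 probes of 9034 named genes were. The median signal of an array was 71.5 to 74.0, and 15179 to 17017 probes were detected on each. The mean correlation of an array with the other 11 was lowest for TOL 11, at 0.973, and 0.981 or more for the rest. TOL 11 also stood apart at the top of its group in 1.84% of all tested probes, more than any other array. Skeletal muscle genes were strong on every array, among them Acta1, the actin of the muscle thin filament, at a log2 intensity of 13.69 to 13.88. The chip that held each array: not given in the sources used here, so a chip effect was not tested. In whole muscle, fewer cells of a type and less RNA per cell cannot be told apart.

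Only 4 of the 9 probes, from Sln, Ucp3 and Ppargc1a, passed the detection filter. The tested Sln probe (ILMN_2918875), the first Ucp3 probe (ILMN_2452102) and the tested Ppargc1a probe (ILMN_2710139) were detected on all 12 arrays. The second Ucp3 probe (ILMN_1233132) was detected on 10, which were all 6 TOL and 4 of 6 INT arrays. The other Sln probe and the other Ppargc1a probe were detected on 0 arrays, with detection p between 0.474 and 0.995 and between 0.168 and 0.919. The annotation therefore gives Sln and Ppargc1a each a pair of probes that disagree on whether the gene is measured, and every value of these genes rests on 1 probe.

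**Figure D1:**
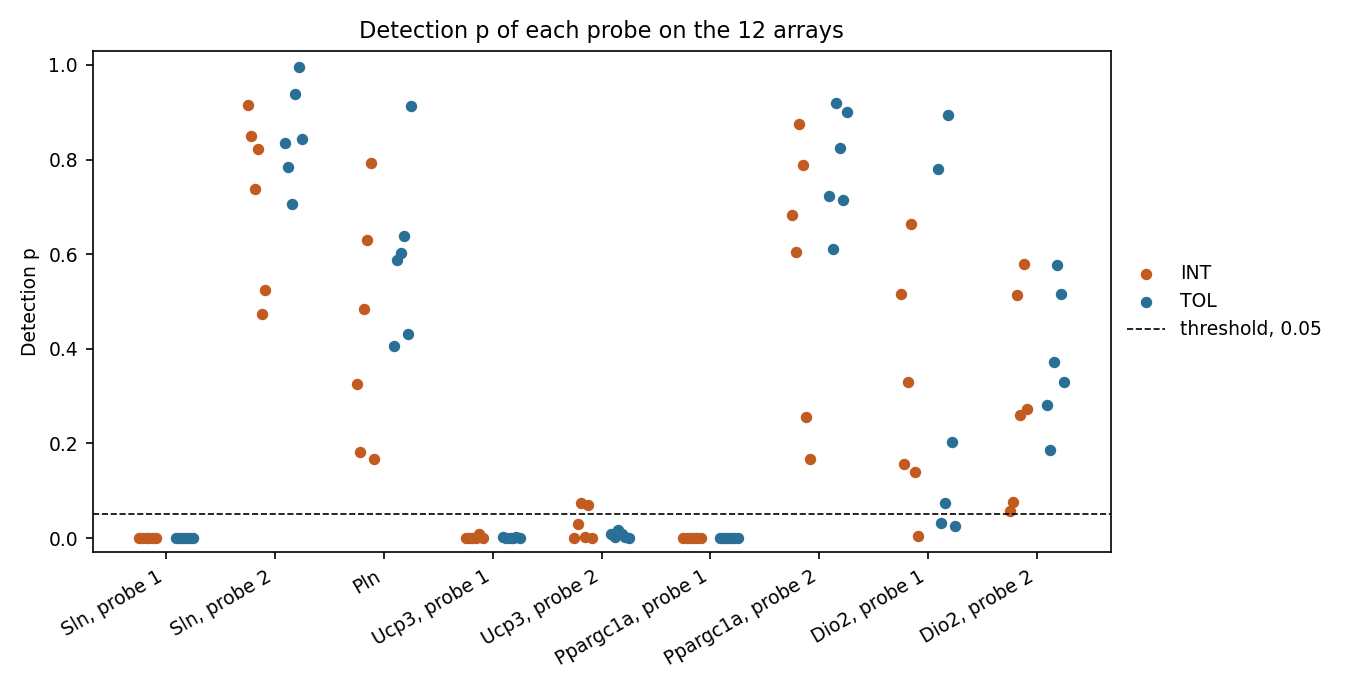
Detection p (vertical axis) of the 9 probes (horizontal axis) on each of the 12 arrays, with 1 point per mouse, INT in orange and TOL in blue, and the threshold of 0.05 as a dashed line. The points of Sln probe 1, Ucp3 probe 1 and Ppargc1a probe 1 all lie below the line, 2 INT points of Ucp3 probe 2 lie above it, and the other probes lie mostly far above it.

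Sln varied widely from mouse to mouse, and no difference between the groups was detected. The gene lies at 9:53850251-53853849 in GRCm38.p6. In the INT mice its log2 intensity was 5.74 at the lowest, 5.86 at the median and 7.85 at the highest. In the TOL mice these were 5.25, 6.26 and 7.50. The groups overlapped, with 1 high mouse in each, INT 9 and TOL 5, and 1 TOL mouse, TOL 4, below every INT mouse. The means were 6.22 ± 0.82 for INT and 6.24 ± 0.76 for TOL (SD, n = 6 each). The difference, TOL minus INT, was 0.023 on the log2 scale with a 95% interval of -0.74 to 0.78 (limma, adjusted p = 0.993, with p = 0.961 in the exact permutation test, two-sided). With each mouse dropped in turn its sign turned 7 times of 12, with a range from -0.23 without TOL 5 to 0.35 without INT 9, and it was -0.072 with median scaling of the arrays. From the lowest mouse (TOL 4) to the highest (INT 9) the normalized intensity differed 6.05-fold, and this fold was 3.05 without background correction and 10.7 with the RMA-type correction.

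The genes of the pump that sarcolipin acts on were all detected. Atp2a1, the SERCA gene of fast fibres, was at 13.53 to 13.65 in INT and 13.53 to 13.67 in TOL, close to the top of the scale, with a difference of -0.002 (limma, adjusted p = 0.995) whose sign turned 7 times when single mice were dropped. Atp2a2, the SERCA gene of slow and cardiac muscle, was at 10.55 ± 0.76 in INT and 9.70 ± 0.75 in TOL (SD, n = 6 each), a difference of -0.85 (SE 0.34, adjusted p = 0.401 from limma, unadjusted p = 0.0226) that did not pass the test. Other tested probes of Atp2a2 gave -0.58 and -0.32. INT 9, the mouse with the highest Sln, also had the highest Atp2a2, at 11.83, and the highest summed level of 11 slow-twitch fibre markers, a list that holds Atp2a2 itself. TOL 5, with the second highest Sln, had Atp2a2 at 9.17 and a summed slow-fibre level of 10534, the second lowest of the 12 mice. Within the INT mice the mean log2 level of the slow-twitch markers had r = 0.917 with Sln (exact permutation p = 0.0181, adjusted p = 0.217, n = 6). INT 9 was the highest in both, and the Spearman rho of these mice was 0.657 (exact permutation p = 0.175). Within the TOL mice r was -0.498, over all 12 mice 0.176, and without INT 9 and TOL 11 -0.589.

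Pln could not be measured in this muscle with its single probe. The gene lies at 10:53337686-53345999. The signal was 69.6 to 73.7 in INT and 68.1 to 71.7 in TOL, and the detection p was 0.168 or more on every array. These signals are at the level of the array medians, so only a bound at background can be given, and no fold was computed. Of the other small SERCA regulators in the list (Mrln, Strit1, Erln and Arln), none has a probe under that name here.

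Ucp3 was close to the detection limit in most mice and high in 1. The gene lies at 7:100472991-100486432. At the first probe the log2 intensity in the INT mice was 4.58 at the lowest, 4.94 at the median and 5.62 at the highest. In the TOL mice it was 4.61, 4.94 and 7.19. The TOL mice other than TOL 11 lay between 4.61 and 5.26, inside the INT range, and TOL 11 lay above every INT mouse. The second probe gave the same picture, with 4.28, 4.51 and 5.02 in INT and 4.43, 4.54 and 6.61 in TOL, again with TOL 11 at the top. The 2 probes correlated with r = 0.934 over the 12 mice and 0.620 without TOL 11.

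The groups did not differ in Ucp3 beyond the spread between mice. The means at the first probe were 5.02 ± 0.39 in INT and 5.28 ± 0.97 in TOL (SD, n = 6 each). The difference was 0.26 (95% interval -0.45 to 0.96, adjusted p = 0.853 in limma, with p = 0.721 in the exact permutation test, two-sided), and 0.30 (-0.32 to 0.91, adjusted p = 0.798 from limma) at the second probe. Without TOL 11 the differences were -0.12 and -0.047, so the positive sign rested on that mouse. The other carriers of the inner membrane in the list showed differences near 0. Slc25a4 and Slc25a5, which exchange ADP for ATP and can themselves leak protons, differed by -0.10 (limma, adjusted p = 0.899) and 0.091 (limma, adjusted p = 0.846), and the sign of Slc25a4 turned without TOL 7 and that of Slc25a5 with median scaling. The 1 probe of Slc25a4 had signals of 93.8 to 138.5, against 435.1 to 678.3 for Slc25a5, and how well it reads the gene was not tested. Ucp1 was detected on 0 arrays, at signals of 64.9 to 73.3.

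Ppargc1a was clearly detected in all mice, and its highest value was again in TOL 11. The gene lies at 5:51454249-52115853. In the INT mice its log2 intensity was 6.52 at the lowest, 6.82 at the median and 7.41 at the highest. In the TOL mice it was 6.11, 6.49 and 8.34. Of the 6 TOL mice, 3 lay below every INT mouse (TOL 3, TOL 5 and TOL 9), 2 lay inside the INT range and TOL 11 lay above it.

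The means of Ppargc1a were 6.92 ± 0.38 in INT and 6.73 ± 0.82 in TOL (SD, n = 6 each). The difference was -0.19 (95% interval -0.82 to 0.43, adjusted p = 0.885 in limma, with p = 0.654 in the exact permutation test, two-sided). Without TOL 11 it was -0.52, with an unadjusted p of 0.00676 and an adjusted p of 0.292 from limma, so it did not pass the test over all probes in that fit either. Ppargc1b, the related coactivator gene, was at 7.54 ± 0.49 in INT and 7.33 ± 0.51 in TOL (SD, n = 6 each), with a difference of -0.22 (limma, adjusted p = 0.820). TOL 11, highest in Ppargc1a, was the lowest of the 12 mice in Ppargc1b, at 6.48.

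Dio2 was at the background on most arrays. The gene lies at 12:90724552-90739038. One probe (ILMN_2766037) was detected on 3 arrays, INT 11 at a signal of 80.1, TOL 4 at 75.5 and TOL 11 at 75.3, and its other 9 signals were 68.3 to 75.5. The other probe was detected on 0 arrays. Detected and undetected arrays occurred in both groups, and no fold was computed. The other deiodinase genes and the thyroid hormone receptor genes were no easier to measure. Dio1 and Thrb were detected on 0 arrays, Thra on 1 and Dio3 on 2.

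**Figure D2:**
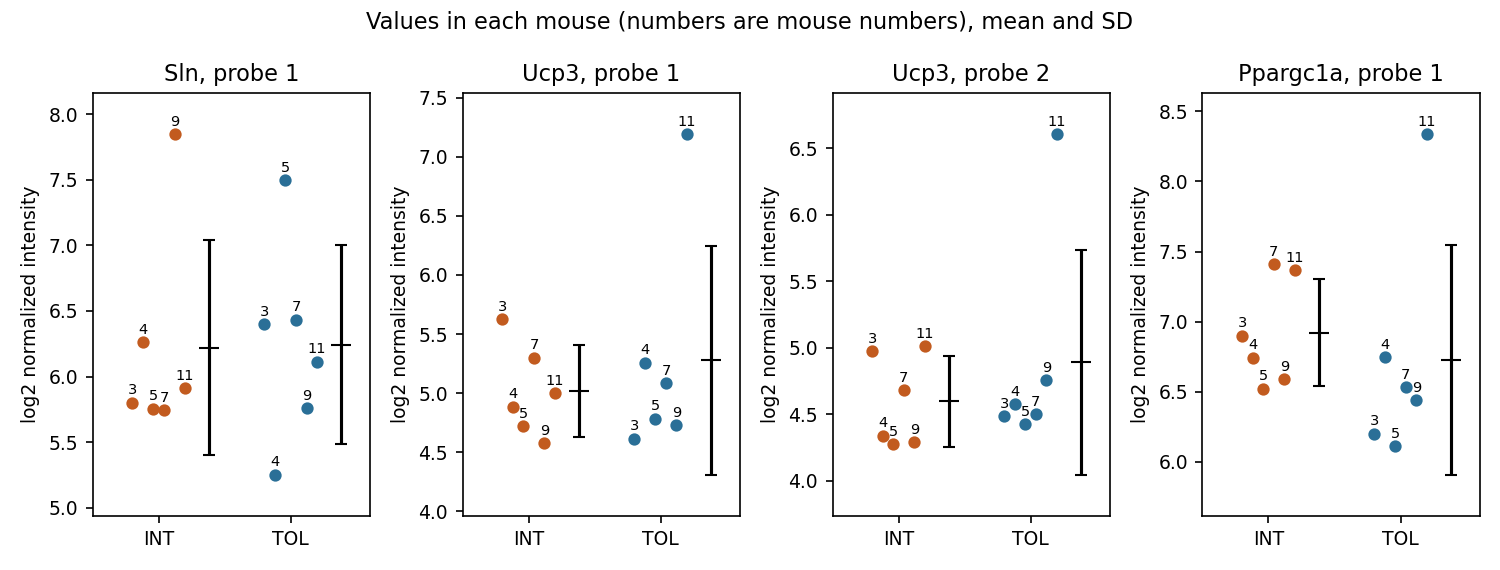
Log2 normalized intensity (vertical axis) of the 4 tested probes in the 6 INT (orange) and 6 TOL (blue) mice, with mouse numbers above the points and the mean and SD of each group in black. INT 9 and TOL 5 are high in Sln, and TOL 11 is the top point of both Ucp3 probes and of Ppargc1a.

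Set against the whole array, none of the tested probes was called. At an adjusted p under 0.05, 0 of the 4 probes passed in limma and 0 by the methods' t-test, where 0.829% of all tested probes passed in limma, 0.0385% higher and 0.79% lower in TOL. At the unadjusted threshold of 0.05 in limma 0 of 4 passed, where 9.91% of all tested probes did, 4.61% higher and 5.3% lower. The INT and TOL values overlapped for all 4 probes, where 1.09% of all tested probes had groups that did not overlap. The 95% intervals above hold sizeable differences in either direction, so the data do not show that the groups were alike in these genes.

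**Figure D3:**
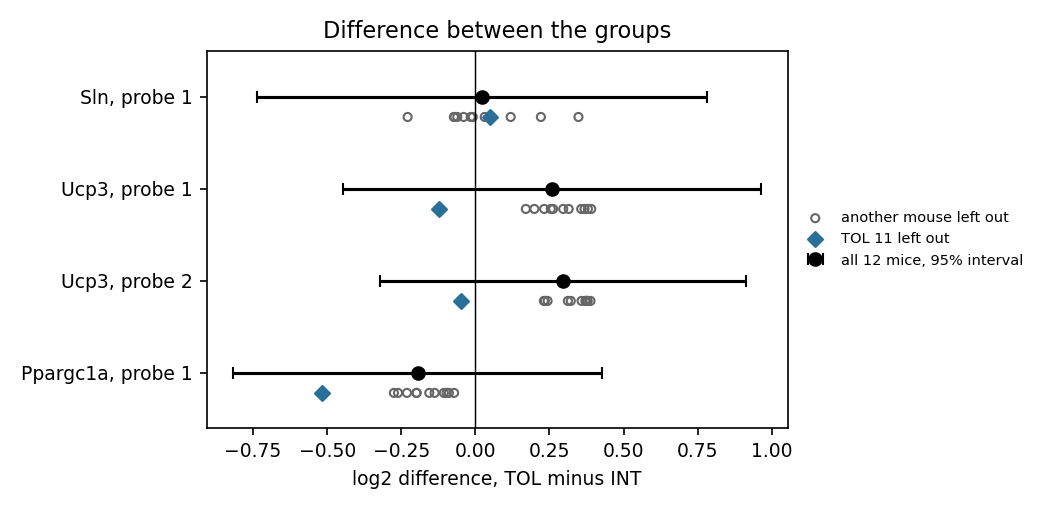
Log2 difference TOL minus INT (horizontal axis) for the 4 tested probes, as the estimate over 12 mice with its 95% interval (black), with each mouse other than TOL 11 left out in turn (grey circles) and with TOL 11 left out (blue diamonds). All intervals span 0, and leaving out TOL 11 takes Ucp3 from 0.26 to -0.12 and Ppargc1a from -0.19 to -0.52.

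What set these genes apart from most of the array was their spread between mice. The SD over the 12 mice was 0.75 for Sln, 0.72 and 0.63 for the Ucp3 probes and 0.62 for Ppargc1a. These were larger than the SD of 99.4%, 99.3%, 99.0% and 98.9% of the tested probes. Ucp3 owed part of this rank to TOL 11: without that mouse the shares were 94.2% and 86.2% for the Ucp3 probes and 97.5% for Ppargc1a. Sln without INT 9 was still at 98.8%. The highest mouse exceeded the lowest 6.11-fold in Ucp3 at the first probe and 4.67-fold in Ppargc1a, and without TOL 11 by 2.07-fold and 2.46-fold. These folds depend on the background correction, with 2.54 for Ucp3 and 3.04 for Ppargc1a without any and 22.4 and 5.99 with the RMA-type correction. Of the 2 mice high in Sln, TOL 5 was the lowest of all 12 in Ppargc1a, at 6.11, and INT 9 was at 6.59.

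Ucp3 and Ppargc1a varied together over the mice, and no relation of Sln to either passed the test. Of the 3 pairs, Ucp3 and Ppargc1a had r = 0.858 (permutation p = 0.0029, adjusted p = 0.0086 over the pairs) and a Spearman rho of 0.762 (permutation p = 0.0050, adjusted p = 0.0151). Without the 2 mice farthest from the median of Ucp3, INT 3 and TOL 11, r was 0.657 (permutation p = 0.0385, adjusted p = 0.116), which no longer passed. Without TOL 11 alone it was 0.595 (permutation p = 0.0533, adjusted p = 0.122), so the call rested on that mouse. Within the INT mice r was 0.545 (exact permutation p = 0.249, n = 6). Within the TOL mice r was 0.989 (exact permutation p = 0.0069, n = 6), with TOL 11 as the far point. Their Spearman rho was 0.829 (exact permutation p = 0.0583, adjusted p = 0.175), which did not pass. The second Ucp3 probe gave r = 0.853 with Ppargc1a, and 0.581 without TOL 11. After each group's mean was taken out, with TOL 11 kept in, r was 0.917 (permutation p = 0.00094, adjusted p = 0.0028). The rho of these deviations was 0.895 (permutation p = 0.00020, adjusted p = 0.00060).

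Sln had r = -0.282 with Ucp3 (permutation p = 0.333, adjusted p = 0.333) and -0.334 with Ppargc1a (permutation p = 0.280, adjusted p = 0.333), with rho of -0.413 and -0.399. Without INT 9 and TOL 5 these r were -0.0085 and -0.078. Without TOL 11 they were -0.544 (permutation p = 0.0812) and -0.464 (permutation p = 0.143), and within INT -0.609 and -0.458, and none of these passed. The mice high in Sln and the mouse high in Ucp3 and Ppargc1a were thus different ones.

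**Figure D4:**
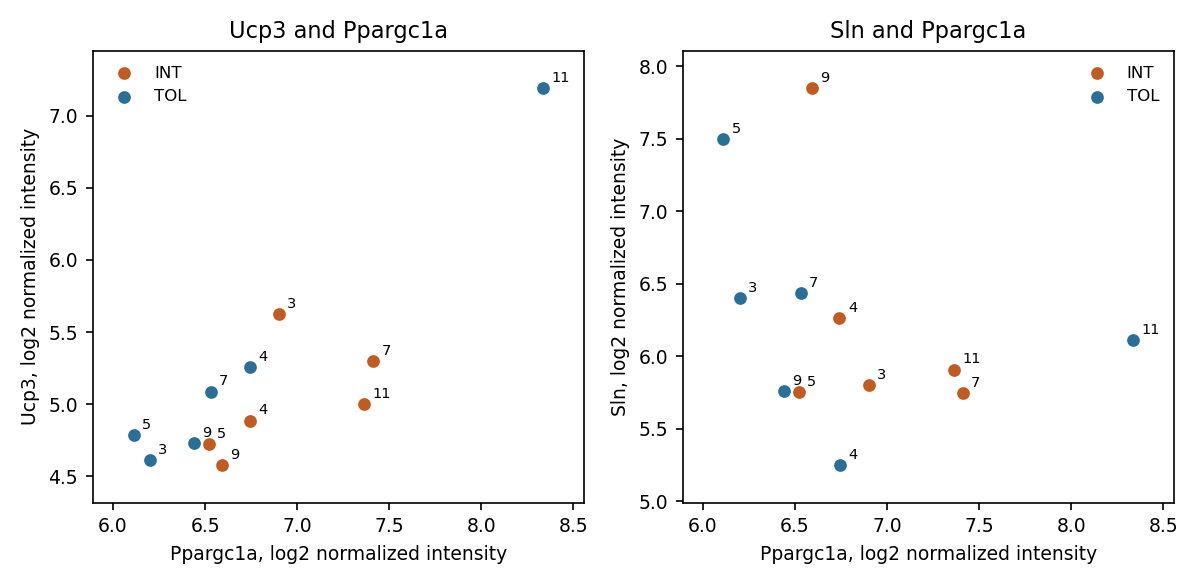
Ucp3 (left) and Sln (right) against Ppargc1a, all as log2 normalized intensity, with 1 point per mouse, INT in orange and TOL in blue, and mouse numbers beside the points. Ucp3 rises with Ppargc1a, with TOL 11 far from the other 11 mice, and Sln shows no such order.

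The promoters of this pair are shown because their mRNAs varied together. The windows are the 250 bases before the transcript start that the promoter table made from RefSeq (GRCm38.p6) gives for each gene, and 5 of the 6 genes matched it. For Ucp3 that start is the edge of the gene's span given above, and for Ppargc1a it lies inside the span, which reaches further upstream to other annotated starts. The letters searched, on both strands, were the cAMP response element (CRE, TGACGTCA) and the shorter CRE core it contains (TGACG). The nuclear receptor core (AGGTCA) was searched with direct repeat 1 and the ERR element (TCAAGGTCA), which both contain it. The MEF2 core (TAAAAATA), E-boxes of the MyoD (CAGCTG) and USF (CACGTG) types and a glucocorticoid receptor core (TGTTCT) were searched too. So were a forkhead core (GTAAACA), a heat shock element (GAANNTTC), a GC box (GGGCGG) and a TATA box (TATAAA). The nuclear receptor and glucocorticoid receptor cores are each only a part of a full site. The window of Ppargc1a is chr5:51567726-51567975 on the reverse strand and that of Ucp3 is chr7:100472741-100472990 on the forward strand, both printed 5′ to 3′ along the gene, with capitals at the motifs found.
Ppargc1a: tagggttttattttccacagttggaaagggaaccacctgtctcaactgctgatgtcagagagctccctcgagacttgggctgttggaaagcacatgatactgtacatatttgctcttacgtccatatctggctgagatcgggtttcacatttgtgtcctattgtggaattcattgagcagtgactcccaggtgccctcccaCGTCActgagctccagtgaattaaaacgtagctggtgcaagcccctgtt
Ucp3: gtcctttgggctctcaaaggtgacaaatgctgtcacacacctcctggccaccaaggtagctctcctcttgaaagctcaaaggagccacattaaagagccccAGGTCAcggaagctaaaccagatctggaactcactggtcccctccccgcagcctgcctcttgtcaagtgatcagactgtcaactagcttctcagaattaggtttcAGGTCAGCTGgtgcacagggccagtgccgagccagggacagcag
In Ppargc1a the capitals mark 1 CRE core, on the strand opposite to the gene, at 49 to 45 bases before the start. In Ucp3 they mark nuclear receptor cores at 149 to 144 and at 44 to 39 bases before the start. They also mark an E-box at 40 to 35 that overlaps the second of these cores. These short motifs are common: of 32851 promoter windows of this length, 17.8% hold the CRE core, 4607 windows hold AGGTCA at least once and 1.36% of them all hold it at least 2 times, and 13.0% hold CAGCTG. None of the other letters searched were in either window. A match is a stretch of letters and was not tested as a binding site.

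The genes whose values ran most like these over the 12 mice, among 9033 others, are given as a description. For Ucp3 they were Ifi205 (r = 0.958), Aff1 (0.958) and Pkp4 (0.949), and without TOL 11 their r was 0.791, 0.759 and 0.838. For Ppargc1a they were Pde4d (0.935), Swt1 (0.905) and Fam180a (0.893), with 0.834, 0.877 and 0.712 without TOL 11. Pde4d encodes a phosphodiesterase that breaks down cAMP, and it was at 5.35 to 6.20 in INT and 5.11 to 7.43 in TOL, highest in TOL 11. All 6 of these genes had their highest value in TOL 11. They were chosen by r with genes far highest in that mouse, so this peak is no separate result. For Sln the nearest were Nmt1 (0.875), 1700016D06Rik (0.854) and Pcdh1 (0.839). Each was highest in INT 9, as Sln was, which likewise comes with the choice. The transporter gene Slc7a8 can carry thyroid hormone and was picked after its values were seen. It had r = 0.947 with Ucp3 over the 12 mice, and its r without TOL 11 is not given here. It stood at 6.72 in TOL 11, against a TOL median of 5.25 and 5.74 at most in INT.

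Pdk4, which encodes a kinase that holds back glucose oxidation and is induced with PGC-1alpha in fasting, was highest in TOL 11, as Ucp3 was. It ranged from 7.62 over a median of 9.10 to 10.45 in INT, and from 7.75 over 7.95 to 11.18 in TOL. TOL 11 and INT 3, the 2 highest mice at the first Ucp3 probe, were also the 2 highest in Pdk4. At the second Ucp3 probe INT 11, at 5.02, came before INT 3, at 4.98. Its r was 0.786 with Ucp3 and 0.820 with Ppargc1a over the 12 mice, as a description, and 0.566 and 0.643 without TOL 11. TOL 4, second among the TOL mice at the first Ucp3 probe, had the lowest Pdk4 of the TOL mice. The groups differed by -0.48 in Pdk4 (SE 0.52, adjusted p = 0.821 from limma), and by -1.01 without TOL 11.

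None of the PGC-1alpha targets in the list taken here was called different between the groups. Of 17 genes in that list, all tested, 9 were higher and 8 lower in TOL on average, and 0 reached 0.05 in limma with or without adjustment. The median difference was 0.0046, against -0.0034 over all 9034 genes. Tfam, a factor of mitochondrial DNA maintenance, was at 6.43 to 6.96 in INT and 6.65 to 6.95 in TOL. Esrra, a nuclear receptor that acts with PGC-1alpha, differed by -0.046 (limma, adjusted p = 0.902), and by 0.083 at its other tested probe. Tfb2m, a mitochondrial transcription factor, had a difference of -0.18 (adjusted p = 0.524) and Vegfa, a vessel growth factor, 0.22 (adjusted p = 0.614), neither of which passed in limma, and the other tested probe of Vegfa gave -0.16.

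Over the 9 lists of heat-production genes, 131 genes in all, 115 had a probe and 92 were tested. At an adjusted p under 0.05 in limma 0 were higher and 1 was lower in TOL, where 0.542% of all genes were called, 0.0221% higher and 0.52% lower. At the unadjusted threshold of 0.05 in limma 3 were higher and 7 lower, where 8.41% of all genes were called, 3.89% higher and 4.53% lower, so the share in the lists was near that of the array. With median scaling the split was 1 higher and 11 lower, and over all genes 95 higher and 963 lower in place of 351 and 409, so the balance of directions depends on the scaling.

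The gene that passed was Mef2c, a muscle transcription factor that binds the Ppargc1a promoter and is coactivated by PGC-1alpha. Its log2 intensity was 10.82 to 11.76 in INT and 10.11 to 11.10 in TOL. The means were 11.43 ± 0.33 and 10.64 ± 0.42 (SD, n = 6 each), and it fell by 0.79 on the log2 scale (SE 0.18, adjusted p = 0.0484 from limma). The groups overlapped through INT 3, the lowest INT mouse. The call was lost for 9 of the 12 mice when each was dropped in turn, with adjusted p between 0.00794 and 0.128 in limma, and by the methods' t-test (adjusted p = 0.244). Other tested probes of Mef2c gave -0.52, -0.45 and 0.059 and did not pass.

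Mef2c belongs to the PGC-1 family and partner list, in which 2 of 14 tested genes were higher and 12 lower on average. Over all 9034 genes 4421 were higher and 4613 lower. Median scaling gave the list the same counts. It also moved the median difference of all genes to -0.079, so the same counts there are no check on the split. The median difference of the list, without that scaling, was -0.17. Besides Mef2c, Atf2 (-0.24, adjusted p = 0.418) and Esrrb (-0.38, adjusted p = 0.459) passed the unadjusted threshold of 0.05 in limma, and the other tested probe of Atf2 gave 0.11. Atf2 encodes a factor that binds CRE sites. Ppara, Mef2d, Yy1 and Creb1 did not pass the detection filter.

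Among the regulators upstream of PGC-1alpha, 6 of 12 tested genes were higher and 6 lower, and 0 passed at the adjusted threshold in limma. Ppp3ca, a catalytic subunit gene of the calcium-activated phosphatase calcineurin, was at 9.89 ± 0.13 in INT and 9.51 ± 0.23 in TOL (SD, n = 6 each), a difference of -0.38 (adjusted p = 0.162 from limma, unadjusted p = 0.0026). Its other tested probe gave 0.019. Camk2b, a calcium-dependent kinase gene, had 0.26 (limma, adjusted p = 0.637).

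In the list of adrenergic receptors and cAMP signalling, 6 of 9 tested genes were higher, and Gnas and Prkar1a had the smallest p. Gnas encodes the G protein subunit that couples receptors to cAMP. It was at 7.37 ± 0.37 in INT and 7.99 ± 0.30 in TOL (SD, n = 6 each), a difference of 0.62 (adjusted p = 0.130 from limma, unadjusted p = 0.0018). Its other tested probes gave -0.47 and 0.18, so the probes disagreed in direction. Prkar1a, a regulatory subunit of the cAMP-dependent kinase, had -0.24 (limma, adjusted p = 0.327) and 0.16 at its other tested probe.

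The remaining lists held no gene that passed in limma. In calcium release and storage 7 of 11 tested genes were higher, with a median of 0.096. Calr, a calcium-binding chaperone of the reticulum, had -0.48 (limma, adjusted p = 0.215) and Jph1, which holds the reticulum against the cell membrane, 0.25 (limma, adjusted p = 0.488). In the other ATP or substrate cycles 7 of 13 were higher, with a median of 0.016 and with Gpd1 of the glycerol phosphate cycle at 0.38 (limma, adjusted p = 0.459) and Gamt of creatine synthesis at 0.14 (adjusted p = 0.744). Of the thyroid hormone genes 5 of 7 were higher, with a median of 0.065 and with Slc16a10, a transporter, at 0.16 (limma, adjusted p = 0.616) and Usp33, which removes ubiquitin from Dio2, at -0.13 (adjusted p = 0.789). The SERCA list had 1 of 4 higher (median -0.024, including Atp2a3 at -0.046, and at 0.16 with its other tested probe) and the list of uncoupling proteins and nucleotide carriers 4 of 6 (median 0.052). With median scaling these 5 lists had 4, 3, 3, 0 and 2 genes higher.

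**Figure D5:**
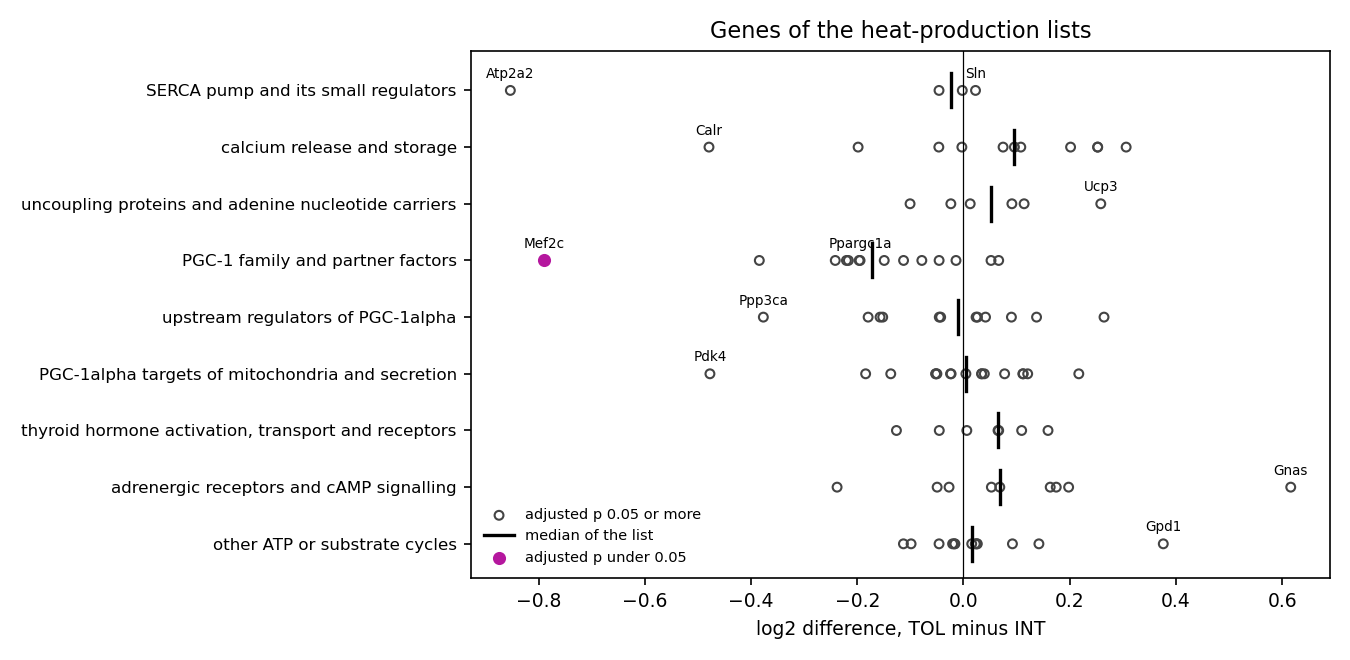
Log2 difference TOL minus INT (horizontal axis) of every tested gene in the 9 heat-production lists (rows), with the median of each list as a black bar. Mef2c, the filled point at -0.79, is the 1 gene of the lists with an adjusted p under 0.05 in limma, and Atp2a2, Gnas, Calr, Pdk4, Ppp3ca and Gpd1 are the other named outer points.

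Markers of other fibre and cell types were compared with the 3 tested genes, since the muscle was taken whole. The summed level of 11 slow-twitch fibre markers was 15255 to 40570 in INT and 9805 to 24584 in TOL, highest in INT 9 and lowest in TOL 11, with 1 of the 11 genes higher and 10 lower on average and a median difference of -0.64. At the unadjusted threshold of 0.05 in limma 7 of them were lower and 1 higher, where 4.53% and 3.89% of all genes were. After adjustment 0 of them passed. For 12 fast-twitch markers the sums were 101823 to 105544 and 99378 to 106097. For 5 adipocyte markers, without Plin1 and Retn, which did not pass the filter, they were 3085 to 4865 and 2261 to 4699, sums made almost wholly by Lpl, which muscle also expresses, while Adipoq, a defining adipocyte gene, was at a signal of 264.9 at most. For 7 macrophage and myeloid markers, without Itgam at 0 detected arrays, they were 126 to 331 and 158 to 261. The correlations used the mean log2 level of each list and not these sums. Of the 12 correlations between these 4 lists and Sln, Ucp3 and Ppargc1a, none passed after adjustment. The smallest p was that of slow-twitch markers with Ucp3 (r = -0.572, permutation p = 0.0778, adjusted p = 0.934, and r = 0.170 without INT 9 and TOL 11). The part of fibre and cell makeup in the results on Sln, Ucp3, Ppargc1a and Atp2a2 was not tested.

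Other marker lists gave no group call apart from Neb. Of 8 brown and beige fat markers 5 were tested, among them Cox7a1 and Cox8b, which muscle also expresses, and Ucp1 and Elovl3 were detected on 0 arrays. Their sums were 11529 to 13301 in INT and 11555 to 13049 in TOL. For 6 endothelial markers the sums were 690 to 785 and 573 to 818, and for 2 erythrocyte markers 550 to 1999 and 922 to 2345. None of the 8 lymphocyte markers passed the filter. Of 10 skeletal muscle genes, 1 passed in limma, Neb, which encodes the thin-filament protein nebulin and fell by 1.61 (adjusted p = 0.000166).

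TOL 11 also stood out in a heat shock gene, whose part in its other values was not tested. Hspa1a, the inducible Hsp70 gene, was at 12.41 in TOL 11, 10.04 in TOL 4 and 8.88 in TOL 7, against 4.68 to 5.29 in the other TOL mice and 4.64 to 6.26 in INT. TOL 4 and TOL 7 had Ucp3 at 5.26 and 5.09 and Ppargc1a at 6.74 and 6.53. These values, with Ucp3 at its first probe, were inside the INT range. Among the TOL mice they came next after TOL 11, in the same order as in Hspa1a. At the second Ucp3 probe TOL 9 came next after TOL 11, at 4.76 against 4.58 in TOL 4 and 4.50 in TOL 7. The order of Hspa1a was thus not kept at that probe.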

How the data were processed

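Total RNA of 12 gastrocnemius muscles was hybridized to Illumina MouseWG-6 v2 arrays, 1 per mouse. The authors used GenomeStudio (version not given in the sources used here) to obtain each probe's average intensity, and deposited it linear, without background subtraction or normalization, beside a detection p-value. A second deposited table holds intensity values that were background-subtracted and quantile-normalized by a program not stated, each column with a median of 1.6. It differs from the log2 table of the methods and was an alternative only. 0 value columns were left without a sample. A description field names all mice heat intolerant, so groups came from titles and source names.

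In limma 3.58.1 (R 4.3.3), neqc with an offset of 16 gave log2 intensities. Probes with detection p under 0.05 on at least 6 of 12 arrays were fitted with lmFit and eBayes with an intensity trend, TOL against INT, with Benjamini-Hochberg adjustment over 15570 probes and a threshold of 0.05. The methods' one-way ANOVA and t-test correspond to this contrast. A gene took its tested probe with the highest mean. Of 45281 probes, 34885 have 1 gene symbol, 18 several and 10378 none in the platform annotation. Correlations used 100000 permutations, or all of them within a group. Steps were tested on simulated arrays. Alternatives covered background, scaling, filter, array weights, block, test and each mouse left out.

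The genes, the lists and the rule for naming genes (members, the 2 smallest p of each list and every call, 3 nearest genes per member, listed partners) were chosen with earlier results of these data known. Mice are the replicates, and their number limits the precision.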

Additional observations from a re-analysis of the deposited data

Results flagged for a closer look

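In 4 of the 8 sets of 6 values (4 tested probes in 2 groups) 1 mouse stood apart from the rest of its group, in that its gap to the nearest mouse, as a share of the group's range, was above Dixon's critical value for 6 samples. Chance alone gives about 5% of such sets if the values follow a normal curve. Over all tested probes INT 9 stood apart at the top of its group in 0.424%. TOL 11 did so in 1.84%, the largest such share of any array. Counted at either end, as in the 8 sets, the share was 0.700% for INT 9 and 3.15% for TOL 11. TOL 11 again had the largest, and INT 3 came next with 2.62%. Over the 6 mice of a group these shares add up. Their total was not computed, so the 4 of 8 sets are compared only with the 5% of a normal curve. In Sln the mouse apart was INT 9, at a log2 intensity of 7.85 against 6.26 for the next mouse, with a share of the range of 0.753. In Ucp3 it was TOL 11, at 7.19 against 5.26 with a share of 0.750 at the first probe, and at 6.61 against 4.76 with a share of 0.847 at the second. In Ppargc1a it was again TOL 11, at 8.34 against 6.74 with a share of 0.716. The 2 Ucp3 probes measure 1 gene in the same mice, so these are 3 genes in 2 mice. TOL 11 also correlated least with the other arrays (mean 0.973), and the part of array quality in its Ucp3 and Ppargc1a values was not tested.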

How the results depend on the processing

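Ucp3 and Ppargc1a kept their sign over 11 alternatives other than leaving out a mouse, with differences of 0.12 to 0.34 and -0.35 to -0.10, and 0 passed the test. The Sln difference turned to -0.072 with median scaling and -0.047 with array weights. With 1 mouse left out the ranges were -0.23 to 0.35 for Sln, -0.12 to 0.39 for Ucp3 and -0.52 to -0.072 for Ppargc1a. The sign turned for Sln without INT 3, INT 5, INT 7, INT 11, TOL 3, TOL 5 or TOL 7, and for Ucp3 without TOL 11 (-0.12, and -0.047 at the second probe). The cause was not tested.

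The count of probes called, 129, was 77 for probes detected on all 12 arrays, 52 with the methods' t-test and 78 to 152 with 1 mouse left out, and that at an unadjusted p of 0.05 or less, 1543, was 3131 with no filter, where more probes were tested, and 1289 to 1646 with 1 mouse left out. The count of list genes called, 1, was 0 with RMA-type background correction, with no background correction, for probes detected on all 12 arrays, at detection p under 0.01 and with the t-test, and 0 to 2 with 1 mouse left out, where Ppp3ca joined Mef2c without TOL 7.

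The same mouse numbers occur in both groups, but samples of 1 number did not deviate together (correlations of -0.0072 to 0.15), so the numbers were not used as pairs. With the number as a replicate block 124 probes were called, 10 higher and 114 lower in TOL, in place of 6 and 123. Of the list genes 2 were called (Mef2c, adjusted p = 0.0270, and Gnas, adjusted p = 0.0370, limma). No other list gene changed its call, and the differences were 0.023 for Sln, 0.26 for Ucp3 and -0.19 for Ppargc1a. A chip block could not be run.

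Other turned signs were near 0: Slc25a5 (-0.023) and Tfam (-0.063) with median scaling, Atp2a3 with array weights (0.062), and with 1 mouse left out Atp2a1 (range -0.017 to 0.012), Atp2a3 (-0.0996 to 0.083), Tfam (-0.025 to 0.080) and Slc25a4 (-0.22 to 0.023).

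The correlation of Ucp3 and Ppargc1a lost its call without INT 3 and TOL 11 (r = 0.657) and within INT (0.545), and was 0.595 to 0.913 with 1 mouse left out, a choice made after the data were seen. None of the marker correlations passed. Their sign turned, without the 2 farthest mice, for slow-twitch markers with Sln (-0.589), Ucp3 (0.170) and Ppargc1a (0.536), macrophage markers with Sln (0.366) and Ppargc1a (0.051) and fast-twitch markers with Ppargc1a (-0.082). Within TOL it turned for slow-twitch (-0.498) and macrophage (0.468) markers with Sln, adipocyte markers with Ucp3 (-0.116) and Ppargc1a (-0.038), and fast-twitch (-0.263) and macrophage (0.391) markers with Ppargc1a, and within INT for fast-twitch markers with Ucp3 (0.020). Adipocyte markers turned with no background correction (-0.0575 with Ucp3, -0.033 with Ppargc1a) and median scaling (-0.039 and -0.014), and macrophage markers with median scaling for Sln (0.0083) and RMA-type correction for Ppargc1a (0.051). The exclusion of dim probes, and 6 mice per group, limit what these arrays can show for Pln and Dio2.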

Other observations

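Across the heat-production lists TOL 11 had the highest value of the 12 mice in 19 of the 92 tested genes (20.7%), more than any other mouse, where it was highest in 13.5% of all 9034 genes, and the lowest value in 12 (13.0%), where it was lowest in 17.7% of all genes. At the low end TOL 5 came first, lowest in 14 of the 92 (15.2%), where it was lowest in 6.94% of all genes. Genes at their highest in TOL 11 included, besides Ucp3 and Ppargc1a, Lpin1, a coactivator and enzyme of fat synthesis induced in fasting, at 8.94 against 8.75 at most in INT, and Alpl, the phosphatase of the creatine cycle, at 5.55 against 5.19. Genes at their lowest in TOL 11 included Atp2a2 at 8.47, Ppargc1b at 6.48 and Pde4b, a phosphodiesterase, at 7.02. Lpin1, Alpl and Pde4b were named after their values were seen. These are values of 1 mouse, with no test.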
